A study of Mus musculus with 2 samples.

Results

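These 9 genes were described across the nuclear classes of mouse frontal tissue. They are the lipid carriers Apoe and Clu, the lipid exporters Abca1 and Abcg1, the lipoprotein receptors Lrp1, Vldlr and Lrp8, and the sorting receptors Sorl1 and Sort1. They were chosen by gene symbol, 9 of the 31040 genes of the count matrix, and each symbol occurred once. Nuclei came from the prefrontal cortex of wild type C57BL/6 male mice aged 2 months. The METH group had received methamphetamine at 5 mg/kg and the Control group saline, which its label also gives as 5 mg/kg, both by intraperitoneal injection for 14 days. Tissue of 3 mice was used per group and each group has 1 sample, so no group has a replicate. Barcodes carry the suffix 1 or 2, which separates 2 libraries, called library 1 and library 2 here. Which of them is METH is not said in any label or file, so treatment was not compared and both libraries are shown side by side.

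Brain lipoproteins are small particles of cholesterol and phospholipid made mainly within the brain, with apolipoprotein E as their main carrier protein. ABC transporters in the cell membrane pass lipid from the cell to these carriers. Cells take the particles up through a family of lipoprotein receptors on their surface. In forebrain development Vldlr and Lrp8 also serve as receptors for Reelin, a secreted protein that guides migrating neurons. Sorl1 and Sort1 are receptors with a VPS10 domain that carry cargo between the Golgi, endosomes and the cell surface. Liver X receptors, nuclear receptors that sense oxidised cholesterol, are known to switch on Abca1, Abcg1 and Apoe.

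The start regions of Abca1 and Apoe are shown because an exporter and its acceptor are set side by side throughout the results. Each is the 250 bases before the annotated start of the gene, 5′ to 3′ along the gene, from RefSeq on GRCm38.p6. Abca1 lies on the minus strand and its stretch is chr4:53159896-53160145. Apoe also lies on the minus strand, with its stretch at chr7:19699189-19699438. Capitals mark a direct repeat of the liver X receptor type, searched on both strands as GGTNA, 5 bases of any kind and GGTNA again, letters that were loosened after the Abca1 sequence was seen.
Abca1: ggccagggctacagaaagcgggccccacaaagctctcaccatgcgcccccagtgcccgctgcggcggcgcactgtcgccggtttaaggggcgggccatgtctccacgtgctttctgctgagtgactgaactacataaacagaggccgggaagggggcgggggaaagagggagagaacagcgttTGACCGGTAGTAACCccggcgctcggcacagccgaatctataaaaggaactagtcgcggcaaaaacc
Apoe: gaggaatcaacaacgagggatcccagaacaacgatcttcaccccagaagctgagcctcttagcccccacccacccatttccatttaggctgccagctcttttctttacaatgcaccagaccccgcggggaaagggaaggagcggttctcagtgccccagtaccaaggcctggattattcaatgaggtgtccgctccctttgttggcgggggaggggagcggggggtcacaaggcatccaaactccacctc
The repeat, read on the other strand, lies 67 to 53 bases before the Abca1 start, and 204 of 32851 start regions of this length (0.621%) hold a match. No match to these letters was found in the Apoe windows. Entries were found for 6 of the 9 genes, and not for Clu, Abcg1 and Sort1. Some genes have several annotated starts, 3 for Apoe and for Lrp8 and 2 for Sorl1 and for Vldlr, and a motif was counted for a gene where any of its windows held it. Of other motifs, the E-box CACGTG was found for Abca1 and Sorl1 (6.02% of all windows). TATAAA was found for Abca1 and, at another start than the one printed, for Apoe (12.4% of all windows). GGGCGG was found for Abca1, Lrp1 and Sorl1 and at the other start of Vldlr (32.7% of all windows).

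On GRCm38, which the submitters' processing notes name as mm10, Apoe spans chr7:19696109-19699188 on the minus strand and Clu chr14:65968483-65981547 on the plus strand. Abca1 spans chr4:53030787-53159895 on the minus strand and Abcg1 chr17:31057675-31117988 on the plus strand. Lrp1 spans chr10:127538161-127621148 on the minus strand, Vldlr chr19:27216484-27254231 on the plus strand and Lrp8 chr4:107802261-107876840 on the plus strand. Sorl1 spans chr9:41964720-42124297 on the minus strand and Sort1 chr3:108284082-108361511 on the plus strand. Whether reads within introns were counted is not given in the sources used here.

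Library 1 held 9890 barcodes and 31273163 UMIs (unique molecular identifiers, each counting 1 captured molecule), and library 2 held 10876 barcodes and 35292937 UMIs. After removal of barcodes under 500 genes and of called doublets, 18095 nuclei were kept, and 16441 of them (90.9%) fell into 9 classes of at least 100 nuclei. The class names rest on marker genes alone and mean that the nuclei are like that cell type. All 15 astrocyte, 16 microglia, 15 oligodendrocyte and 10 differentiating oligodendrocyte markers were highest in the class of that name. So were 15 of 16 striatal projection neuron, 11 of 12 neuroblast, 10 of 14 precursor and 8 of 12 inhibitory neuron markers, but only 5 of 12 excitatory neuron markers. The same lists named the clusters, so these counts give no separate support for the names. Slc17a7, a defining transcript of cortical excitatory neurons, was at 316 and 421 CPM (counts per 1000000 UMIs) in excitatory neurons of libraries 1 and 2, at 549 and 635 CPM in neuroblasts and at 302 and 562 CPM in microglia, which do not make it. RNA of other cells was thus counted in these nuclei, and for each gene and class a free RNA limit was set, an upper limit on what such RNA could give. The classes held 7585 excitatory, 2444 inhibitory and 1387 striatal projection neurons, 3040 oligodendrocytes, 865 microglia, 355 oligodendrocyte precursors, 342 neuroblasts and dividing progenitors, 310 astrocytes and 113 differentiating oligodendrocytes. Astrocytes were unevenly spread, with 51 in library 1 and 259 in library 2, and neuroblasts with 47 and 295. The median depth ran from 691 UMIs in microglia to 4462 in excitatory neurons. All levels are CPM within a class with exact Poisson 95% intervals, and ratios have exact conditional 95% intervals. With 1 library per group these cover counting error only, and no p-value was computed.

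Each gene had its own order of classes. The highest class was astrocytes for Apoe and Clu, microglia for Abca1 and Lrp1, oligodendrocytes for Abcg1 and Sort1, differentiating oligodendrocytes for Vldlr, and neuroblasts for Lrp8 and Sorl1. The highest class was called clear if its ratio to the second class had an interval without 1. This held for 4 of the 9 genes, Apoe, Clu, Lrp8 and Sort1, against 25.5% of the 15737 genes with at least 50 UMIs. With the added demand of a 2-fold distance it held for 2 of the 9, Apoe and Clu, against 13.5% of all genes. Of the 81 pairs of a gene and a class, 49 were above the free RNA limit, a count for which no share over all genes was computed. In its highest class each gene but Sorl1 was above it, 8 of 9, against 58.2% of all genes. Both libraries had the same class first for 5 of the 9 genes, Apoe, Clu, Lrp1, Lrp8 and Sorl1. For Lrp1 and Sorl1 the interval of the ratio to the second class included 1 in each library. No share over all genes was computed for this count.

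**Figure D1:**
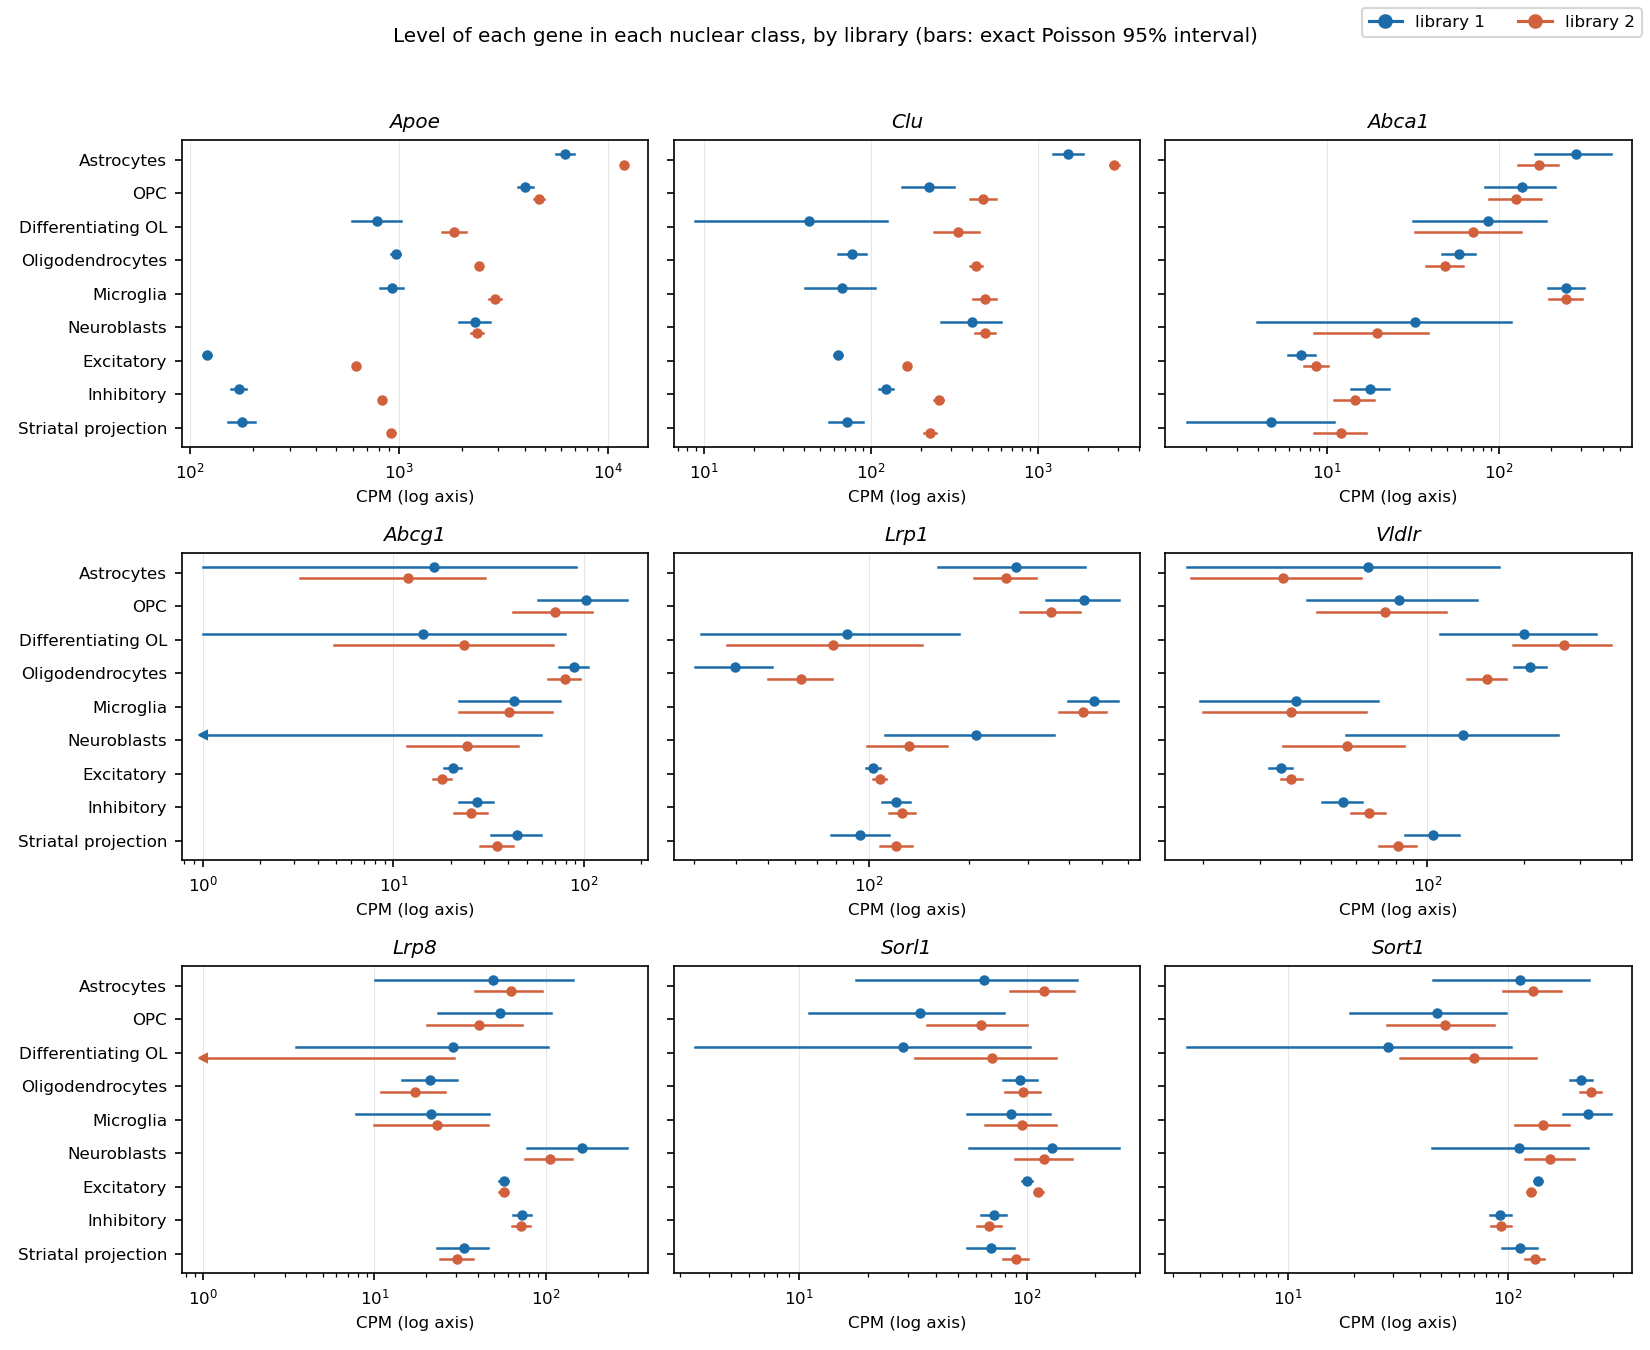
Level of each gene in the 9 classes (CPM, log axis) in library 1 (blue) and library 2 (orange), with exact Poisson 95% intervals; OPC are oligodendrocyte precursors, OL oligodendrocytes, and an arrow at the left marks 0 UMIs. Apoe and Clu are highest in astrocytes in both libraries and lie apart between the libraries in most classes, while the points of the other genes mostly lie close together.

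Apoe, the main carrier of brain cholesterol, was highest in astrocytes. Its level there was 6281 CPM in library 1 and 12019 in library 2, pooled 11136 (95% interval 10811 to 11469). Oligodendrocyte precursors followed at 4041 and 4691 CPM, so the lowest astrocyte value lay above the highest precursor value. The pooled ratio of the 2 classes was 2.50 (2.36 to 2.64), with 1.55 in library 1 and 2.56 in library 2. The pooled ratio of astrocytes to excitatory neurons was 29.3 (28.4 to 30.4). This ratio was larger in library 1 and smaller in library 2, a difference that the pooled interval does not cover. Pooling mixed the libraries unevenly, with 51 and 259 astrocytes but 3601 and 3984 excitatory neurons from libraries 1 and 2. Microglia, the phagocytes of the brain, had 924 and 2891 CPM of Apoe, pooled 2008 and above the free RNA limit of 1482. Oligodendrocytes had 965 and 2417 CPM and differentiating oligodendrocytes 788 and 1837. In neuroblasts the level of 2364 CPM was not set apart from the limit of 2327. The neuronal classes were lowest, with 177 and 919 CPM in striatal projection neurons, 171 and 828 in inhibitory neurons and 120 and 622 in excitatory neurons. By pooled level, every neighbouring pair of classes differed beyond its counting interval. The closest was oligodendrocytes over differentiating oligodendrocytes at a ratio of 1.13 (1.01 to 1.28). The pooled order did not hold within each library. Oligodendrocytes lay above microglia in library 1. In library 2 microglia and oligodendrocytes lay above neuroblasts, which had 2310 and 2372 CPM in libraries 1 and 2.

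Within astrocytes Apoe was nearly ubiquitous. At least 1 UMI was found in 99.4% of them as counted. With every nucleus thinned to 500 UMIs the share was 95.5% (92.5% to 97.5%), against 84.8% (80.6% to 88.4%) of precursors and 17.5% (16.7% to 18.4%) of excitatory neurons, the lowest class. The median astrocyte held 5 Apoe UMIs of 500 and the median precursor 2. The 10% of astrocytes with the most Apoe UMIs held 30.9% of all Apoe UMIs of the class as counted, and the highest single nucleus held 183.

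Apoe in precursors was looked at beside the astrocyte markers, because those were present there too. The summed level of the 15 markers was 4335 CPM in precursors against 16905 in astrocytes, and 2 of the 15 were at 0 in precursors. In the 103 precursors without a UMI of 13 astrocyte markers (all but Rorb and Gpc5), a choice made after the data were seen, Apoe was at 3610 CPM (3274 to 3971). In the 252 precursors with such a UMI it was 4793 CPM (4549 to 5047). Apoe was thus lower without astrocyte marker UMIs but still above the limit of 1153 CPM for the class. Clu was at 351 CPM (252 to 476) without and 396 (328 to 474) with them, intervals that overlap. Of the other classes, neuroblasts had 1850 CPM (1653 to 2064) of Apoe without and 2663 (2481 to 2855) with such UMIs, and oligodendrocytes 1495 and 2005. Clu in oligodendrocytes was at 204 CPM (184 to 226) without and 325 (289 to 365) with them. Microglia had 1876 and 2255 CPM of Apoe, while differentiating oligodendrocytes, with 1478 and 1444, had overlapping intervals.

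Clu encodes clusterin, also called apolipoprotein J, a secreted chaperone of brain lipoproteins. Its level in astrocytes was 1517 CPM in library 1 and 2854 in library 2, pooled 2649 (2491 to 2813). The pooled astrocyte level was 5.60 (4.84 to 6.50) times that of neuroblasts, the next class at 473 CPM, with 3.76 and 5.90 by library. It was 22.8 (21.3 to 24.4) times that of excitatory neurons, which had 63.6 and 165 CPM. In library 2 alone the ratio to excitatory neurons was smaller. Library by library, the astrocyte values lay above the values of every other class. Precursors had 224 and 470 CPM of Clu, and with a pooled 383 they were the only other glial class above the free RNA limit. In microglia, where the values were 67.5 and 481 CPM, in oligodendrocytes, with 77.3 and 424, and in differentiating oligodendrocytes, with 43.0 and 330, the pooled levels were not above it. All 3 neuronal classes were above their limits, with 192 CPM in inhibitory neurons, 183 in striatal projection neurons and 116 in excitatory neurons. Inhibitory and striatal projection neurons did not differ beyond counting error, at a ratio of 1.05 (0.956 to 1.15).

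**Figure D2:**
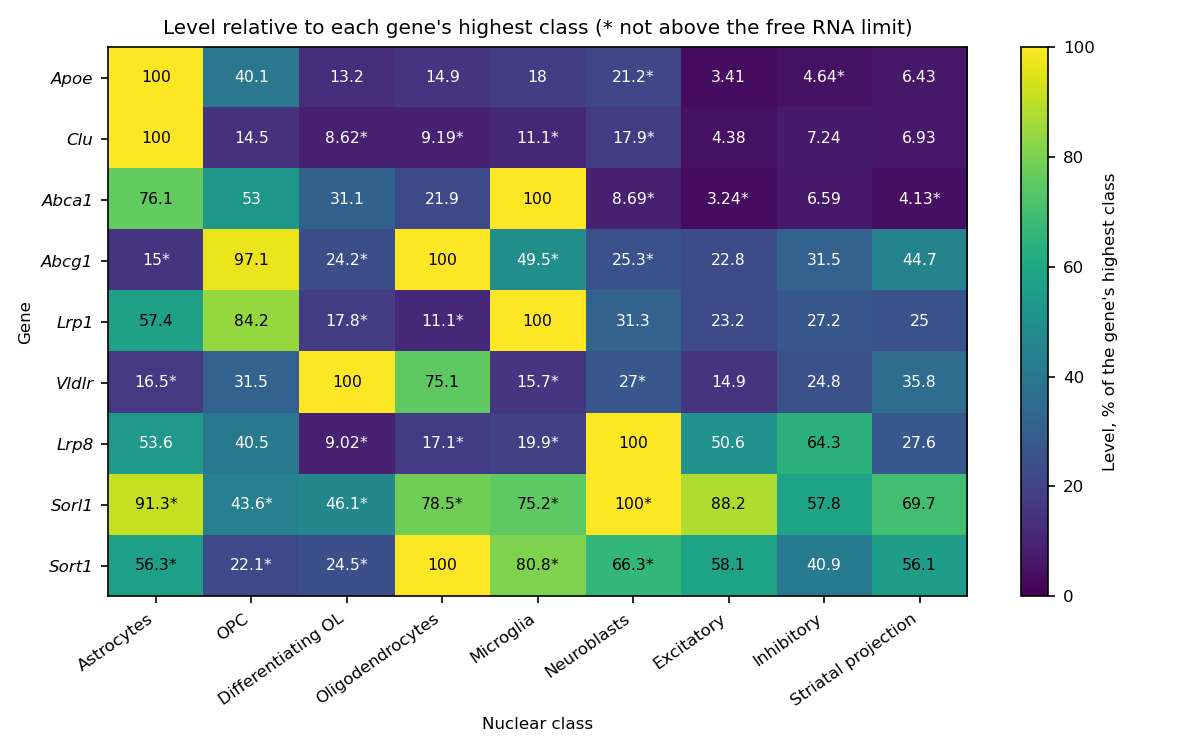
Level of each gene in each class, both libraries pooled, as a percentage of the highest class of that gene (colour and number), with an asterisk where the level is not above the free RNA limit; OPC are oligodendrocyte precursors and OL oligodendrocytes. Apoe and Clu fall off steeply from astrocytes, Abca1 and Lrp1 are shared by microglia, astrocytes and precursors, and Sorl1 is spread over all classes.

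Among the exporters, Abca1 passes cholesterol and phospholipid to lipid-poor apolipoproteins. It was highest in microglia at 245 and 243 CPM, pooled 244 (207 to 286). Astrocytes had 277 and 169 CPM, pooled 186 (146 to 233), and the pooled ratio of microglia to astrocytes was 1.31 with an interval (0.990 to 1.76) that includes 1. The libraries disagreed on which class was first. Precursors followed at 136 and 126 CPM, below microglia by a ratio of 1.89 (1.38 to 2.63) but not set apart from astrocytes. Differentiating oligodendrocytes had 76.1 CPM from 15 UMIs and oligodendrocytes 53.5 CPM. Neurons were lowest: inhibitory neurons had 16.1 CPM, and the 10.1 CPM of striatal projection neurons and 7.92 CPM of excitatory neurons were not above the free RNA limits of 12.3 and 8.36. Microglia had 30.8 (25.2 to 37.6) times the level of excitatory neurons. At equal depth 11.1% (9.08% to 13.4%) of microglia and 0.422% (0.289% to 0.595%) of excitatory neurons held an Abca1 UMI.

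Abcg1, which exports cholesterol to lipoproteins that already carry lipid, had a different order. Oligodendrocytes had 88.3 and 79.0 CPM, pooled 83.9 (73.5 to 95.3), and precursors 102 and 70.3, pooled 81.4 (56.4 to 114). The pooled ratio of these classes was 1.03 (0.717 to 1.52), so they did not differ beyond counting error, and they changed places between the libraries. Striatal projection neurons, at 44.4 and 34.9 CPM, were the highest neuronal class for Abcg1, 1.42 (1.14 to 1.77) times inhibitory neurons. Excitatory neurons had 20.5 and 17.9 CPM of Abcg1, above their limit of 13.1, while the 41.5 CPM of microglia was not above theirs. The lowest class was astrocytes, with 5 UMIs or 12.5 CPM (4.08 to 29.3), under a free RNA limit of 36.5. Oligodendrocytes exceeded astrocytes 6.68 times (2.82 to 20.8). Astrocytes were not set apart from excitatory neurons, at a ratio of 1.52 (0.650 to 4.71), nor from inhibitory neurons, neuroblasts and differentiating oligodendrocytes.

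Of the receptors, Lrp1 takes up many ligands, Apoe particles among them, and was highest in microglia at 473 and 440 CPM, pooled 455 (404 to 511). Precursors had 441 and 351 CPM, and the ratio to microglia of 1.19 (0.975 to 1.45) includes 1. Astrocytes had 277 and 258 CPM, below precursors by 1.47 (1.14 to 1.90). Neuroblasts followed with 142 CPM, then inhibitory neurons with 124, striatal projection neurons with 114 and excitatory neurons with 106, none set apart from its neighbour. Oligodendrocytes were lowest with 39.7 and 62.6 CPM, not above the limit of 63.9. Precursors had 7.56 (6.00 to 9.55) times the Lrp1 level of oligodendrocytes. Differentiating oligodendrocytes had 81.1 CPM from 16 UMIs, with an interval (46.4 to 132) that overlaps the oligodendrocyte value. With each nucleus thinned to 500 UMIs, 18.6% (14.7% to 23.0%) of precursors, 18.4% (15.9% to 21.1%) of microglia and 2.47% of oligodendrocytes held an Lrp1 UMI, so that precursors and microglia were not set apart.

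Vldlr binds Apoe particles and Reelin, and its order along the oligodendrocyte lineage ran the other way. Differentiating oligodendrocytes had 201 and 267 CPM, pooled 243 (180 to 323), and oligodendrocytes 209 and 154, pooled 183 (167 to 199). The interval of their ratio of 1.33, up to 1.79, includes 1, and each was first in 1 library. Precursors had 81.5 and 74.0 CPM, 3.18 (1.99 to 5.13) times below differentiating and 2.38 (1.67 to 3.52) times below mature oligodendrocytes. Striatal projection neurons were the highest neuronal class with 104 and 80.9 CPM, 1.45 (1.25 to 1.67) times inhibitory and 2.40 (2.12 to 2.70) times excitatory neurons. Vldlr in astrocytes, 40.2 CPM, and in microglia, 38.3 CPM, was not above the free RNA limits.

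Lrp8, also called apolipoprotein E receptor 2, is the other Reelin receptor and is known from neurons. It was highest in neuroblasts with 162 and 105 CPM, pooled 112 (84.2 to 147), 1.56 (1.15 to 2.06) times inhibitory neurons. Inhibitory neurons had 72.8 and 71.9 CPM and excitatory neurons 56.8 and 57.0, a ratio of 1.27 (1.16 to 1.40). Striatal projection neurons had 33.1 and 30.3 CPM and lay below excitatory neurons by 1.83 (1.52 to 2.22). Astrocytes had 60.3 CPM from 24 UMIs and precursors 45.5 CPM from 19 UMIs, both above the free RNA limits. Microglia with 22.3 CPM, oligodendrocytes with 19.3 and differentiating oligodendrocytes with 2 UMIs were not. By pooled level, Lrp8 was the only 1 of the 9 genes with all 3 neuronal classes above all 3 of these glial classes, though striatal projection neurons and microglia had overlapping intervals. The antisense gene Lrp8os2 overlaps Lrp8 and held 1059 UMIs. Whether the authors counted by strand is not given in the sources used here, so part of either count could belong to the other.

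Sorl1, a sorting receptor that carries the amyloid precursor protein, was the most evenly spread of the 9 genes. Its levels ran from 52.7 CPM in precursors to 121 CPM in neuroblasts, and the neuroblast level was not above the limit of 157. Only neurons were above their limits, with 100.3 and 112 CPM in excitatory neurons, 70.0 and 89.8 in striatal projection neurons and 71.7 and 68.4 in inhibitory neurons. Excitatory neurons had 1.52 (1.39 to 1.67) times the level of inhibitory neurons. Oligodendrocytes had 94.9 CPM, microglia 91.0 and astrocytes 110.5, none above its limit. For a gene that every class makes, the limit counts its own expression as free RNA, so these glial levels cannot be assigned.

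Sort1 encodes sortilin, a receptor for neurotrophin precursors and for Apoe. It was highest in oligodendrocytes with 216 and 239 CPM, pooled 227 (210 to 246), 1.24 (1.01 to 1.52) times microglia. Microglia had 231 and 145 CPM and were first in library 1, and with a pooled 184 CPM they were not above the limit of 199. Excitatory neurons had 137 and 127 CPM, 1.42 (1.31 to 1.54) times inhibitory neurons with 92.6 and 93.4. The earlier stages of the oligodendrocyte lineage were lowest, differentiating oligodendrocytes with 55.8 CPM from 11 UMIs and precursors with 50.3 from 21. Oligodendrocytes exceeded them 4.07 times (2.26 to 8.20) and 4.52 times (2.93 to 7.35). With free RNA subtracted, Sort1 in oligodendrocytes was at 63.7 CPM and excitatory neurons were the highest class. As counted, Sort1 and Vldlr were both higher in oligodendrocytes than in precursors, and Lrp1, Abca1, Apoe and Clu were lower.

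**Figure D3:**
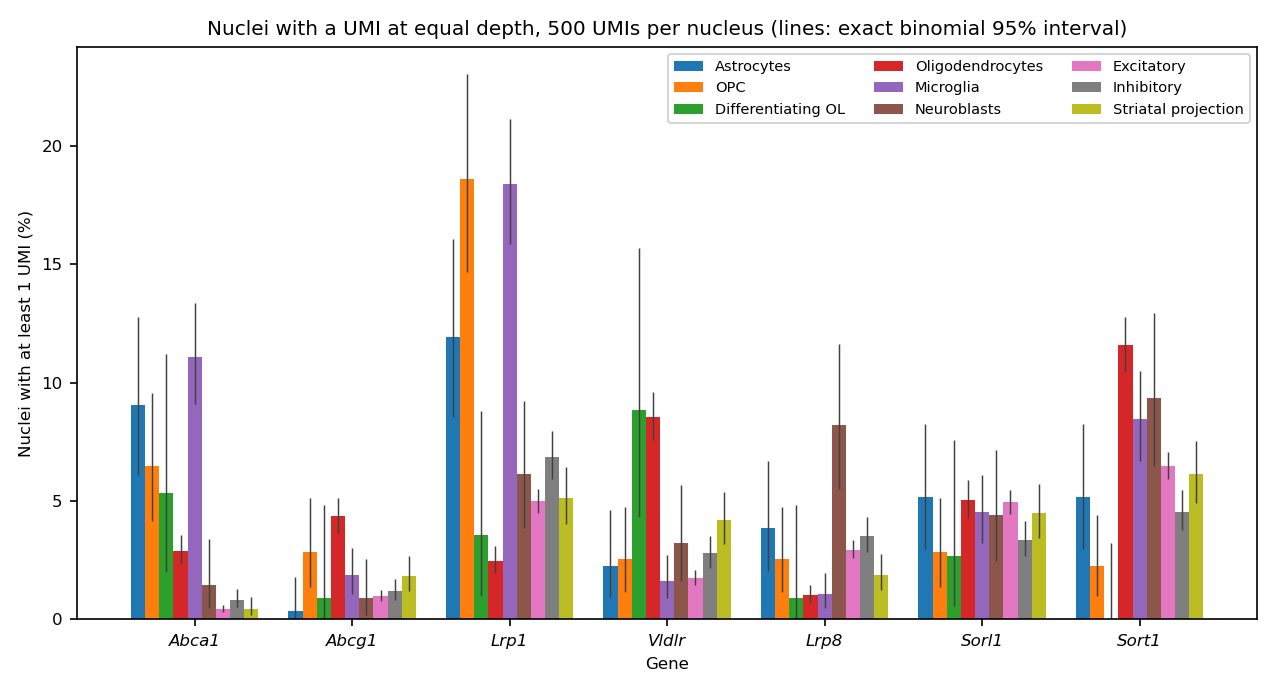
Share of nuclei with at least 1 UMI (%) of the 7 genes other than Apoe and Clu, with each nucleus thinned to 500 UMIs; bar colours are the classes (OPC oligodendrocyte precursors, OL oligodendrocytes) and lines are exact binomial 95% intervals. Lrp1 and Abca1 stand out in microglia, precursors and astrocytes, Sort1 in oligodendrocytes, and Lrp8 in neuroblasts at 8.19%.

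Vldlr at 500 UMIs was found in 8.85% of differentiating and 8.55% of mature oligodendrocytes, against 2.54% of precursors and 1.74% of excitatory neurons, the class with the lowest level. Sort1 was found in 11.6% of oligodendrocytes and in 0 of 113 differentiating oligodendrocytes, for which the interval reaches 3.21%. Lrp8 was found in 8.19% (5.51% to 11.6%) of neuroblasts and 1.02% of oligodendrocytes. Sorl1 shares ran from 2.66% to 5.16% over the 9 classes. As counted, Sort1 was found in 43.9% of excitatory neurons and 18.7% of oligodendrocytes, the reverse of the order at equal depth, where the share of excitatory neurons was 6.47%.

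The neurons were also divided into 14 subclasses by markers of layer, projection and interneuron type, for which no free RNA limit was set. A clear highest subclass was found for 2 of the 9 genes, Abca1 and Sort1, against 13.7% of the 15025 genes with at least 50 UMIs there. Sort1 was highest in the near-projecting neurons of layers 5 and 6 at 214 and 195 CPM, pooled 203 (168 to 244). The next subclass was layer 2/3 with 149 and 137 CPM, at a ratio of 1.42 (1.17 to 1.72). Sort1 was lowest in LAMP5 interneurons with 83.2 CPM. Abca1 was highest in parvalbumin (PV) interneurons at 25.3 and 18.8 CPM, and the ratio to D1 striatal projection neurons was 1.88 (1.16 to 3.14), from 63 and 24 UMIs.

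Sorl1 varied more among neuronal subclasses than among the 9 classes, with a highest level 5.02 times the lowest. Extratelencephalic neurons of layer 5, which project to the brainstem and spinal cord, had 188 and 194 CPM, pooled 191 (177 to 206). Near-projecting neurons had 131 and 177 CPM, not set apart from them at a ratio of 1.22 (0.977 to 1.54), and intratelencephalic neurons of layers 4 and 5 had 129 and 142. The first subclass had 2.43 (2.17 to 2.72) times the Sorl1 level of layer 2/3 and 5.02 (3.59 to 7.23) times that of claustrum-like neurons, the lowest at 31.5 and 41.8 CPM. Among interneurons Sorl1 was higher in LAMP5 than in somatostatin (SST) nuclei, 108 against 59.3 CPM, at a ratio of 1.82 (1.35 to 2.44). D2 striatal projection neurons had 1.42 (1.12 to 1.80) times the D1 level.

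Vldlr was highest in LAMP5 interneurons at 92.1 and 108 CPM and in VIP interneurons at 88.6 and 95.6. PV interneurons had 45.6 CPM, below LAMP5 by a ratio of 2.19 (1.63 to 2.93). D1 and D2 striatal projection neurons followed VIP with 84.7 and 75.9 CPM, and the highest excitatory subclass was layer 2/3 with 44.7. Layer 6b was lowest at 17.5 CPM, 5.71 (3.74 to 8.92) times below LAMP5.

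Lrp8 was highest in deep intratelencephalic neurons at 86.3 and 87.2 CPM, close to SST interneurons at 82.4 and 78.2. It was 2.04 (1.73 to 2.41) times higher there than in layer 2/3 and 3.56 (2.49 to 5.25) times higher than in D2 neurons, the lowest at 23.9 and 24.5 CPM. Vldlr and Lrp8, the 2 Reelin receptors, had D2 neurons at opposite places, the fourth and the last of 14 subclasses. Lrp1 varied least, from 92.4 CPM in layer 2/3 to 137 in VIP interneurons, a ratio of 1.48 (1.23 to 1.78). Abcg1 was highest in D2 and D1 neurons with 38.7 and 36.0 CPM. Clu was higher in VIP and SST than in PV interneurons, by ratios of 1.93 (1.64 to 2.26) and 1.66 (1.45 to 1.91).

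**Figure D4:**
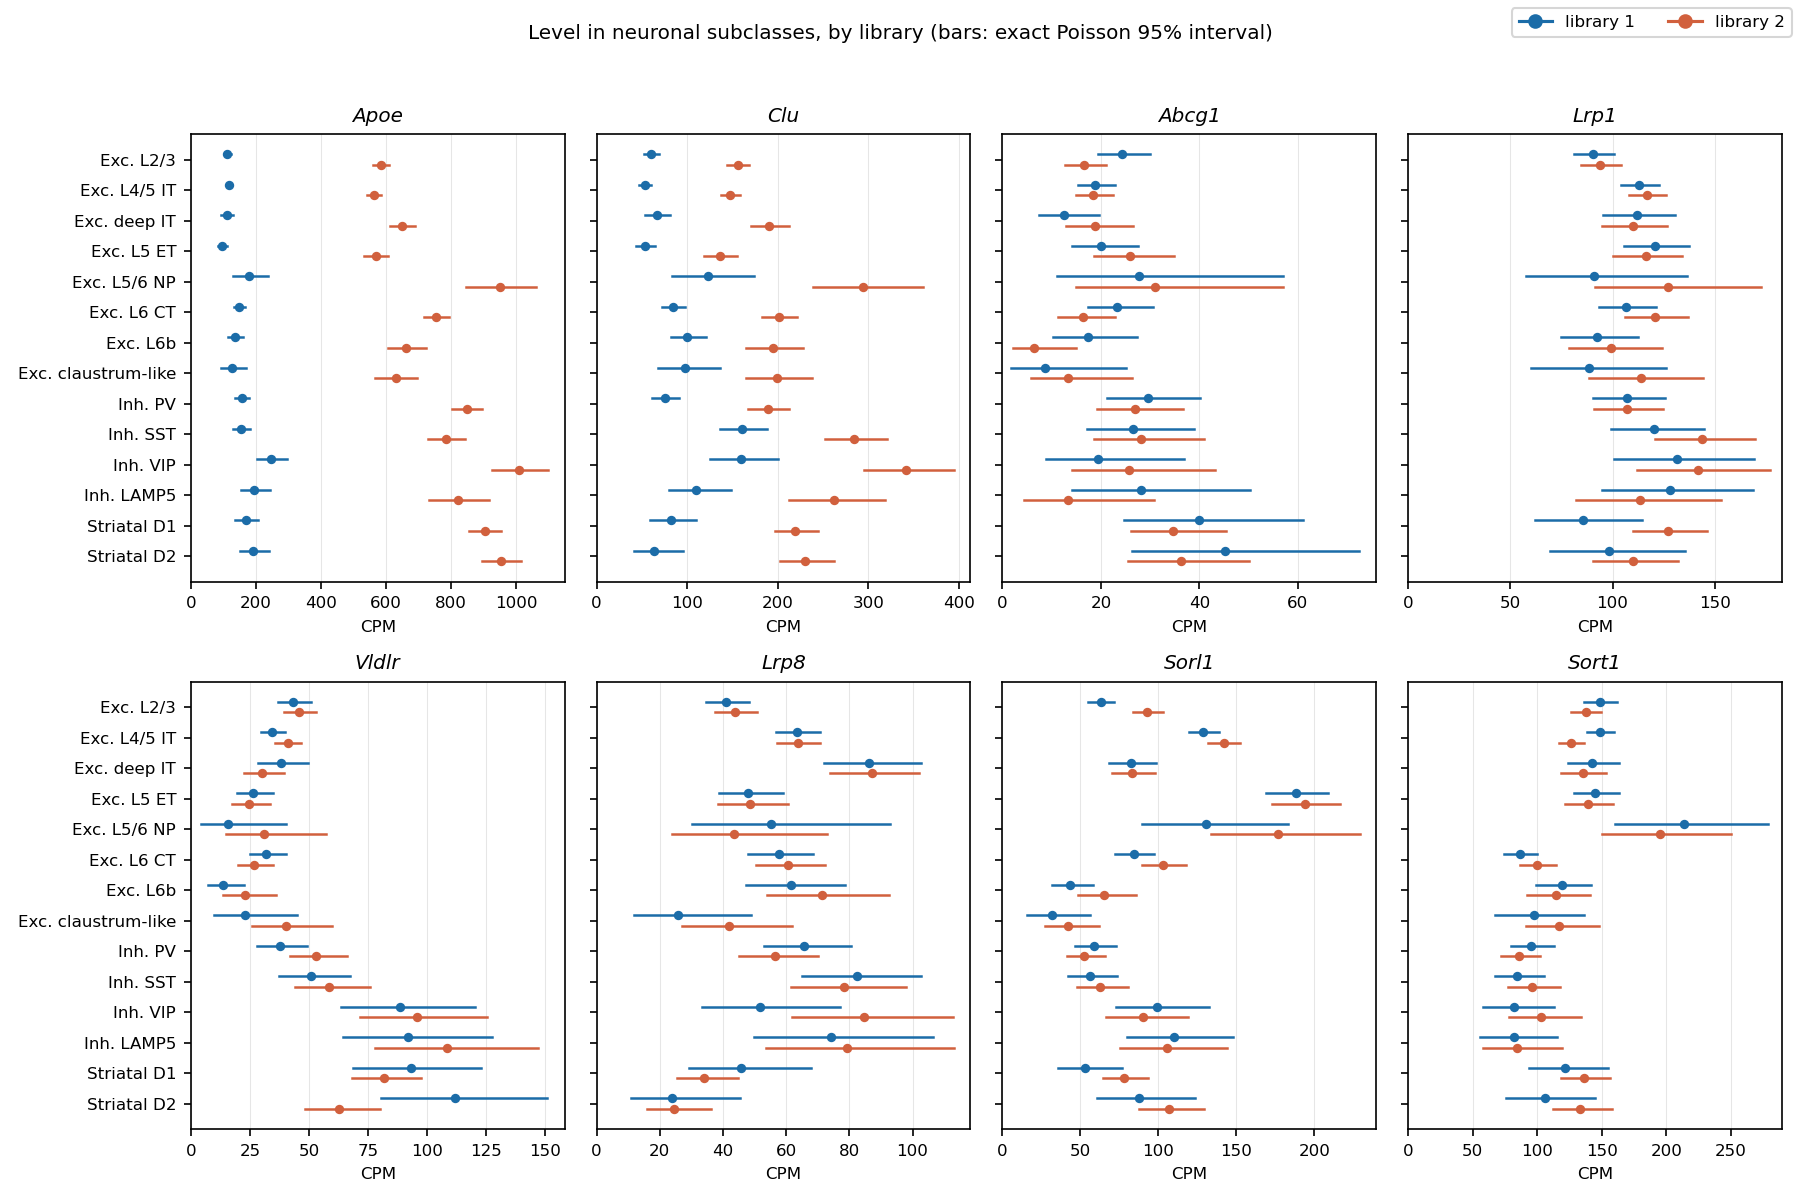
Level (CPM) of 8 of the 9 genes, all but Abca1, in 14 neuronal subclasses in library 1 (blue) and library 2 (orange) with exact Poisson 95% intervals; Exc. and Inh. are excitatory and inhibitory, IT intratelencephalic, ET extratelencephalic, NP near-projecting and CT corticothalamic. Apoe and Clu are split by library in every subclass, while Sorl1, Lrp8, Vldlr and Sort1 have like levels in both.

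Apoe and Clu moved with depth among neurons. Over the 14 subclasses the Pearson correlation of log CPM with log median UMI count was -0.88 for Apoe, with -0.96 in library 1 and -0.96 in library 2, and -0.89 for Clu, with -0.67 and -0.90. The values by library use the CPM of that library but the median UMI count of both libraries pooled. Subclasses share libraries and free RNA, so this is a description. Pooled over the libraries, Apoe ran from 313 CPM in layer 5 extratelencephalic neurons to 747 in D2 neurons. The former had 258 nuclei in library 1 and 266 in library 2, and D2 neurons 137 and 370. The part of this uneven mix in the range was not tested. The same correlation was -0.63 for Vldlr, -0.57 for Abcg1, -0.44 for Lrp1 and -0.14 for Abca1. For Sorl1 it was 0.03, for Lrp8 -0.05 and for Sort1 0.28. The part of depth or free RNA in the order of the subclasses was not tested for any of these genes.

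The libraries were set side by side in the 57 of 81 pairs of a gene and a class with at least 50 UMIs. A pair was called where the ratio passed 1.5-fold and its interval excluded 1, and 16 pairs were called, against 12.5% of all 52910 pairs of a gene and a class. By class the share of all genes called ran from 7.32% in excitatory neurons to 26.1% in microglia. In 15 of the 16, library 2 was higher. Apoe and Clu made up 14 of the 16, out of their 17 pairs, and the other 7 genes the other 2, out of 40. Apoe in library 2 was 5.19 (4.95 to 5.44) times library 1 in excitatory neurons, 4.85 (4.44 to 5.29) in inhibitory neurons and between 4.48 and 6.06 in striatal projection neurons. In glia the Apoe ratio was lower, 3.13 in microglia, 2.50 in oligodendrocytes and 1.91 (1.72 to 2.13) in astrocytes, and in precursors and neuroblasts it was 1.16 and 1.03 and not called. Clu ratios were highest in microglia at 7.12 (4.42 to 12.1) and oligodendrocytes at 5.49 (4.47 to 6.77), and the neuroblast ratio was not called. The other called pairs were Lrp1 in oligodendrocytes, higher in library 2 at 1.58 (1.12 to 2.24), and Sort1 in microglia, lower in library 2 at 0.627 (0.425 to 0.921).

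**Figure D5:**
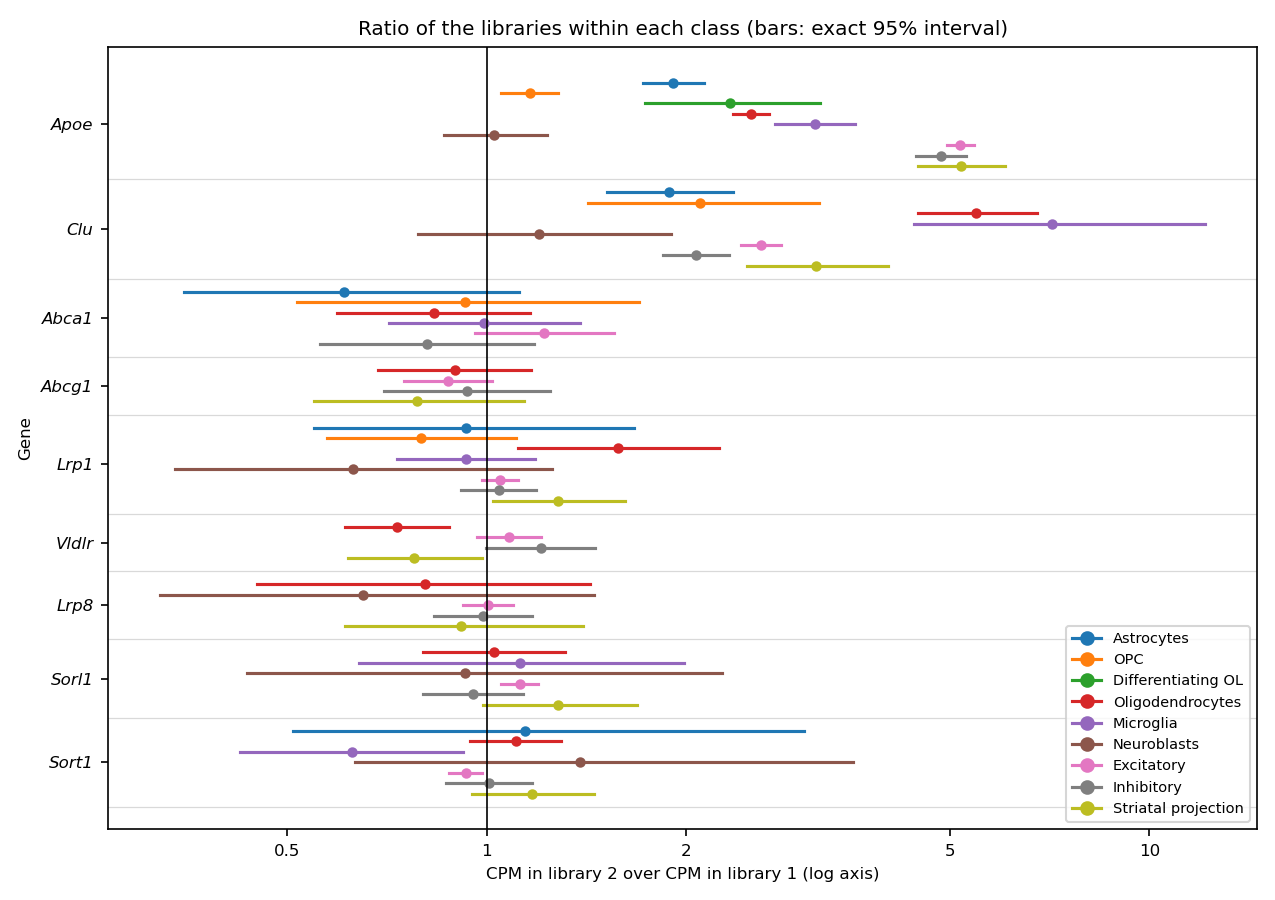
Ratio of the level (CPM) in library 2 to that in library 1 (log axis) for each gene in each class with at least 50 UMIs, with exact 95% intervals; colours are the classes (OPC oligodendrocyte precursors, OL oligodendrocytes). Apoe and Clu lie to the right of 1 in every class shown, by up to 7.12 for Clu in microglia, and the other 7 genes scatter around 1.

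Markers of other cells were set beside these ratios. Markers named here after their values were seen were also higher in excitatory neurons of library 2. Slc1a3, an astrocyte glutamate transporter, was at 5.68 CPM in library 1 and 4.41 times that in library 2. Gja1, an astrocyte gap junction protein, was at 1.83 and 12.0 CPM, and Mbp, a myelin protein, at 106 and 334. Aqp4, also of the astrocyte list, was at 1.09 and 3.48 CPM. The summed astrocyte marker list, 15 genes, was at 468 and 587 CPM in excitatory neurons, 273 and 402 in inhibitory neurons and 647 and 888 in striatal projection neurons, and no marker was at 0 in these classes. The list holds Rorb, which neurons of cortical layer 4 make too. In oligodendrocytes the sum was 323 and 674 CPM and in microglia 505 and 802. In differentiating oligodendrocytes, where Apoe was called at 2.33, the sum was 372 and 455 CPM. In precursors, where Clu was called at 2.10, it was lower in library 2, with 4503 and 4243 CPM. In excitatory neurons the list sum in library 2 was 1.25 times that in library 1, against 5.19 for Apoe. The single list genes named above were at 4.41 for Slc1a3, 6.54 for Gja1 and 3.20 for Aqp4. The free RNA index of that class, from which its limit was set, was 66.6 CPM in library 1 and 141 in library 2. In astrocytes themselves the sum of the marker list was 18240 and 16663 CPM, lower in library 2, where Apoe and Clu were higher. The part of these markers in the Apoe and Clu ratios was not tested, and treatment and library cannot be told apart.

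Apoe and Clu UMIs were also set against each other within a class. In astrocytes there were 4.14 (3.29 to 5.25) Apoe UMIs per Clu UMI in library 1 and 4.21 (3.92 to 4.52) in library 2, with overlapping intervals. Precursors had 18.0 (12.7 to 26.4) and 9.98 (8.31 to 12.1), oligodendrocytes 12.5 and 5.70, and microglia 13.7 and 6.01, above astrocytes in both libraries. Neurons were below astrocytes in library 1, with 1.88 (1.75 to 2.03) in excitatory and 1.39 (1.23 to 1.58) in inhibitory neurons. In library 2 the neuronal values, 3.77 and 3.26, lay closer to that of astrocytes. The pooled Clu of oligodendrocytes and microglia was not above the free RNA limit, and the microglial value of library 1 rests on 19 Clu UMIs. In the neuronal classes, precursors, oligodendrocytes and microglia the libraries differed beyond counting error, so no order of the classes was read from these values.

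Other genes of the pathway were taken from 9 lists. Of their 116 genes 94 had at least 50 UMIs, and 34 of these (36.2%) had a clear highest class, against 25.5% of all genes, with a median ratio to the next class of 1.299 against 1.273. Of the lipid efflux genes 8 of 15 were clear. They included Abca2, a lipid transporter of myelinating cells, with 545 CPM in oligodendrocytes, Abca9 with 342 CPM in microglia, Abca8b with 119 CPM in oligodendrocytes, and Lcat, which esterifies cholesterol on lipoproteins, with 123 CPM in astrocytes. Among apolipoproteins 1 of 6 was clear, Apod with 1258 CPM in oligodendrocytes. In the receptor family of Lrp1, Vldlr and Lrp8, 4 of 11 other genes were clear, among them Lrp1b with 4153 CPM in precursors and Ldlrad4 with 1020 CPM in microglia. Trem2, a microglial receptor that binds lipids and Apoe, had 1294 CPM in microglia, and 2 of the 4 genes of its list were clear. Abca1 and Lrp1 were highest in microglia too, but for neither was this class clear.

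Of the other VPS10 receptors 2 of 3 were clear, Sorcs1 with 730 CPM in oligodendrocytes and Sorcs3 with 261 in precursors. Of the Reelin pathway and adaptor genes 7 of 15 were clear. Reln itself was highest in inhibitory neurons at 415 CPM, where Lrp8 was second of 9 classes. Dab1, the adaptor of Vldlr and Lrp8, was highest in striatal projection neurons at 1204 CPM. Among the neuronal classes these had the most Vldlr and the least Lrp8. Among the neuronal subclasses LAMP5 and VIP interneurons had more Vldlr than D1 and D2 neurons. App, the amyloid precursor, was highest in oligodendrocytes at 1528 CPM, and Fyn, a kinase of the pathway and also a marker of that class, in differentiating oligodendrocytes at 2779. Of the sterol regulators 5 of 12 were clear, with Insig1 at 186 CPM and Srebf1 at 141 in astrocytes. Of the genes of cholesterol synthesis and turnover 5 of 18 were clear, among them Npc2 at 308 and Stard3 at 206 CPM in microglia and Soat1 at 121 in astrocytes. Among retromer and sorting adaptors, the machinery that Sorl1 and Sort1 use, 1 of 11 was clear.

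Genes with the most similar profile were ranked by the Pearson correlation of log2(CPM + 10) over 24 profiles, the classes and subclasses, among 12388 genes. Profiles share libraries and free RNA, and the values are descriptions. Apoe was most like Mt1, a metallothionein, at 0.97, Slc1a3 at 0.96 and S100a1 at 0.96. Clu was most like Acsbg1, Mlc1 and Fam107a, with 0.97, 0.95 and 0.95, and Abca1 most like Lamp2, Nmi and Sqor, with 0.96, 0.95 and 0.94. Slc1a3 and Acsbg1 were also on the marker list that named the astrocytes. Vldlr was most like Shroom2 at 0.89, Ppp1r16b at 0.88 and Pgap2 at 0.86, all highest in oligodendrocytes or differentiating oligodendrocytes. For Lrp1 the genes were Gsap at 0.89, Tap2 at 0.87 and Zfp36l1 at 0.87, and for Abcg1 Slc25a13 at 0.81, Smarcb1 at 0.78 and Lrig3 at 0.76. Lrp8 was most like Pitpnm1 at 0.90, its antisense neighbour Lrp8os2 at 0.87 and Gpr162 at 0.84. Sort1 was most like Dusp3 at 0.87, Foxk2 at 0.74 and Stk11ip at 0.72. Sorl1 had the weakest likeness, with Gpat3 at 0.68, Raver2 at 0.67 and Lix1 at 0.65. Among the 9 genes, Apoe with Clu reached 0.91 and Apoe with Abca1 0.85, and Vldlr with Lrp8 was at -0.49.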

How the data were processed

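The authors deposited raw UMI counts from 10x 3′ libraries of nuclei as 1 matrix. Cell Ranger 1.3.0, Seurat 3.1.4 and mm10 appear in the submitters' processing notes, and per the file headers the matrix was written by software version 3.1.0. In all, 154 barcode sequences occur in both libraries.

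Of all barcodes 19551 reached the minimum of 500 genes. Doublets called by Scrublet within Scanpy 1.11.5 were removed, 841 in library 1 and 615 in library 2. Counts were scaled to 10000 per nucleus and logged, and 3000 variable genes gave 50 principal components, 20 neighbours and Leiden clusters at resolution 1 (igraph 0.11.9, scikit-learn 1.9.0). Each cluster of at least 60 nuclei was clustered again at resolution 0.5, whether or not it had a name. A name needed at least 30 nuclei, at least 3 detected markers and a score 1.5 times that of the next list. A cluster of the second round also stayed unnamed where too few of its list's markers were detected. So did clusters led by genes of another class, or of low depth without a leading gene of their own list. These rules left 1597 nuclei unnamed. Oligodendrocyte clusters and some excitatory neuron clusters were split by library.

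Levels are summed counts per 1000000 UMIs with Poisson intervals (Python 3.11.15, pandas 2.3.3, NumPy 2.4.6, SciPy 1.17.1), drawn with matplotlib 3.10.9. The free RNA limit of a gene in a class is the free RNA index of the class, the level of Slc17a7 (from myelin genes in excitatory neurons), multiplied by a ratio. That ratio is the smallest value of the gene's upper bound over the index among classes with 200000 UMIs or more. A level is above it where its lower bound exceeds it. Only classes with 100 nuclei or more were ranked, whether or not a level was above the limit. The script was tested on simulated data. Gene positions come from GENCODE vM21 and start regions from RefSeq.

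The 9 genes, the pathway lists and the markers were chosen with earlier results of these data known. The text names all 9 genes, the 3 most like each, and list genes with a clear highest class and at least 100 CPM, at most 4 per list, except 1 gene that is not reported here. The closing section names the alternatives.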

Additional observations from a re-analysis of the deposited data

How the results depend on the processing

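Of the 9 genes, all kept their highest class with library 2 alone and without Malat1, and all but Sorl1 with a minimum of 300 genes, with doublets kept, at a resolution of 0.5 and as means over nuclei. At a resolution of 2 Abcg1 lost it, and Lrp8 and Sorl1 did because neuroblasts, with 71 nuclei, were too few to be ranked. After subtraction of free RNA Abcg1, Sorl1 and Sort1 lost it. With a minimum of 1000 genes 2 kept it, Apoe and Clu. No precursor or neuroblast class and only 114 astrocytes were left there, and differentiating oligodendrocytes, with 73 nuclei, were too few to be ranked. Vldlr, Lrp8 and Sorl1 thus could not keep theirs. With library 1 alone 5 kept it, all but Abca1, Abcg1, Vldlr and Sort1. The number with a clear highest class, 4 in the main setting, ran from 3 to 6 over these alternatives, except for means over nuclei, which give no interval. By share of nuclei, 8 had the same highest class at 1000 as at 500 UMIs, where 95.3% of microglia were left out. Apoe in astrocytes ran from 6281 to 12019 CPM and Clu from 1517 to 2854. Sorl1 in neuroblasts ran from 0 to 129 CPM, Sort1 in oligodendrocytes from 63.7 to 241, Abca1 in microglia from 62.2 to 271, Lrp1 there from 161 to 473, Abcg1 in oligodendrocytes from 34.9 to 89.0, Lrp8 in neuroblasts from 74.1 to 162 and Vldlr in differentiating oligodendrocytes from 201 to 276. In precursors without astrocyte marker UMIs Apoe was 3610 instead of 4462 CPM and Lrp1 308 instead of 383. Of the 27 genes named for likeness 19 were the same with log2(CPM + 1) and 5 with Spearman correlation. Abcg1 in astrocytes and Lrp8, Abcg1 and Sort1 in differentiating oligodendrocytes rest on at most 11 UMIs. Thinning both libraries for METH against Control was not run, since neither library is tied to a group. No paired analysis was possible because each group has 1 sample.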

Other observations

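Outside the 9 classes, Apoe was high in a cluster of 97 nuclei led by Ccl5 and Cd74, genes of immune cells, which stayed unnamed. Its Apoe level was 3376 CPM in library 1 and 7395 in library 2, pooled 5582 (95% interval 5238 to 5942), while Abca1 was at 39.8 CPM and Lrp1 at 102. The tenth of these nuclei with the most Apoe held 45.7% of its Apoe UMIs, and with each nucleus thinned to 500 UMIs the mean was 5.14 and the median 1. A second unnamed cluster of 118 nuclei, led by Bnc2 and Slc47a1, had 1467 and 3308 CPM of Apoe, 222 and 640 of Clu and 305 and 301 of Lrp1. Both clusters had more Apoe in library 2. In 94 nuclei led by Inpp5d and Arhgap45, Abca1 was at 171 CPM and Lrp8 had 0 UMIs. The 57 cholinergic-like neurons, too few for a class, had 73.1 and 591 CPM of Apoe, and 114 CPM of Lrp1 in library 1 against 115 in library 2.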
